A study of Homo sapiens with 62 samples.

Results

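The keratin genes were taken as the protein-coding genes whose symbol is KRT followed by a number and at most 1 letter, which gave 55 of 58735 genes in the count tables of 4 of the cell lines. The tables of the fifth line, A2780, held 56 such entries of 48162, because KRT222 appears there under 2 gene identifiers. Of the 55 genes, 29 encode type I and 26 encode type II keratins, 27 lie on chromosome arm 12q and 28 on 17q. None lies on an arm that was removed in this study. In the tables of the 4 lines, 7 keratin genes were at 0 in every library and 21 did not exceed 10 counts in any library.

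Keratins form the intermediate filaments of epithelial cells. A filament is built from pairs of an acidic type I and a basic type II chain, and cell layers are recognised by the pair they make. KRT8 and KRT18, often with KRT7 and KRT19, mark simple epithelium such as the lining of gut and ducts. KRT5, KRT14 and KRT15 mark the basal layer of stratified epithelia, KRT6A, KRT6B, KRT16 and KRT17 appear in activated or injured keratinocytes, KRT10 marks differentiating epidermis, and the KRT81 to KRT86 group belongs to the hair shaft. Melanocytes are not epithelial and hold vimentin filaments instead.

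The study removed an extra copy of a chromosome arm from 5 human cell lines and sequenced the poly(A) RNA of 62 libraries, with cells plated 24 hours before extraction. The arm was removed by methods that the labels call ReDACT, in 3 forms abbreviated CO, NS and TR, and every loss line was grown from a single cell. In A2058, a melanoma line, 4 unmodified libraries (labelled WT, and carrying the extra arms) stood beside 4 libraries of 2 clones that lost 1q, 6 libraries of 3 clones that lost 7p and 4 libraries of 2 clones that lost 8q, all made with CO. In HCT116, a colorectal cancer line, 2 WT libraries stood beside 4 libraries of 2 clones that lost 8q with CO. In AGS, a gastric cancer line, 1 WT library and 2 TK+ clones stood beside 5 clones with 1 library each that lost 1q by NS or CO. TK+ cells carry the selection gene that the NS method uses and keep the extra arm. In A2780, an ovarian cancer line, 2 WT and 2 TK+ libraries stood beside 6 libraries of 3 clones that lost 1q by NS. In MCF10A, a non-tumour breast epithelial line, 2 WT libraries stood beside 8 libraries of 4 clones that lost 1q by CO or TR, and the same layout was repeated in cells carrying the oncogene hRASV12, with 2 WT and 8 loss libraries. Whether an hRas clone descends from the clone of the same number is not given in the sources used here.

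Library totals ran from 15042068 counts in AGS to 30984036 in HCT116. Levels below are counts scaled to the library total multiplied by its TMM factor within each line (CPM, which can differ from the plain share of the counts) where libraries are compared for 1 gene, and counts per kilobase scaled to the same total in each library (TPM) where genes are compared. Fold changes and adjusted p-values come from edgeR's quasi-likelihood test with Benjamini-Hochberg adjustment over all genes tested in a comparison, and a gene is called where the adjusted p is under 0.05. Libraries of 1 clone are not independent of each other, so the p-values measure the spread between libraries and clones and not between separate experiments. In bulk RNA, fewer cells with a keratin and less of it per cell cannot be told apart. The other genes on 12q and 17q had median log2 changes between -0.03 and 0.11 in every comparison. Shares of all genes called are those of the edgeR fit with its filter on low counts. None is given for counts of keratins under DESeq2, without the filter or with libraries left out.

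Some keratin genes are near copies, and the sequences below show how little separates them. KRT81 and KRT86, the hair type II pair, share an unbroken run of 605 coding bases, from 61 to 665 counted from the first coding base in GENCODE 29. The stretch from 616 to 690 is printed with the differing bases in capitals.
KRT81: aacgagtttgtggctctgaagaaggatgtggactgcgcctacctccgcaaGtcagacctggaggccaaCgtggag
KRT86: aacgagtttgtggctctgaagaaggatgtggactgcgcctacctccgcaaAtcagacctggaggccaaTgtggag
KRT6A, KRT6B and KRT6C share 269 coding bases, from 148 to 416, and differ at 1 base in the stretch from 367 to 441.
KRT6A: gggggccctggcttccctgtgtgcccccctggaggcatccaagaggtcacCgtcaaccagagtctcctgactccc
KRT6B: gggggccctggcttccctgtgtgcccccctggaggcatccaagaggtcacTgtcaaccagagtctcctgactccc
KRT6C: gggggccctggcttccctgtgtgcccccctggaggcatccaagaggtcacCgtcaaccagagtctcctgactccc
Of the 50-base words of the KRT81 transcripts, 37.6% also occur in KRT86, and 44.8% of those of KRT6B occur in KRT6C. Reads from such stretches cannot be placed in 1 gene, so the split of counts within these sets is uncertain. KRT81 also lies inside the KRT86 gene on the opposite strand, and the KRT8 and KRT18 genes overlap on opposite strands. The strand setting of the counting is not given in the sources used here.

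Each line had its own keratin set. Keratins took 0.0193% to 0.0336% of the counts in the A2058 WT libraries and 0.523% to 0.629% in the HCT116 WT libraries. The range was 0.461% to 0.576% in the AGS WT and TK+ libraries and 1.03% to 2.76% over all MCF10A libraries. The number of keratins with at least 1 CPM in every WT library was 4 in A2780, 6 in A2058, 13 in HCT116, 16 in MCF10A and 18 in AGS, where WT is 1 library.

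MCF10A held keratins of several classes. In WT cells (n = 2) hair shaft keratins summed to 11820 TPM, stress-associated to 6338, simple epithelial to 4276 and basal to 3960. KRT81 reached 11650 TPM ± 828 (SD, n = 2) in WT cells. KRT5 followed at 3818 TPM ± 495, KRT7 at 3768 TPM ± 282, KRT6A at 3672 TPM ± 462 and KRT17 at 2530 TPM ± 443, and KRT5, KRT7 and KRT6A lay within their spread of one another. KRT7 made up most of the simple keratin, as KRT18, at 401 TPM ± 13.2, and KRT8, at 107 TPM ± 10.8, were lower, and KRT14, the usual partner of KRT5, stood at 121 TPM ± 11.8. KRT19 did not exceed 12 counts in any MCF10A library.

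HCT116 and AGS held the simple epithelial set. In HCT116 WT cells (n = 2) KRT19 was highest in TPM at 2253 TPM ± 290 (SD), followed by KRT8 at 1168 TPM ± 119 and KRT18 at 485 TPM ± 48.2. In CPM, which does not use gene length, KRT8 was above KRT19, at 3103 ± 813 against 2036 ± 587. In the 3 AGS WT and TK+ libraries KRT18 stood at 1278 TPM ± 209, KRT8 at 1192 TPM ± 150 and KRT19 at 887 TPM ± 85.1, the first 2 within their spread. In CPM KRT8 was above both, at 2480 ± 385 against 1245 ± 248 for KRT18 and 626.5 ± 82.5 for KRT19. AGS also held KRT80 at 459 TPM ± 67.0 and KRT17 at 190 TPM ± 122, whereas KRT80 reached 21.6 TPM ± 4.47 in HCT116.

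A2058 and A2780 held little keratin. In A2058 WT cells (n = 4) KRT81 stood at 100 TPM ± 71.5 (SD), KRT18 at 97.2 TPM ± 12.6, KRT10 at 82.9 TPM ± 14.4 and KRT80 at 40.6 TPM ± 9.85, while KRT8 was at 4.90 TPM ± 1.11. Type II KRT8 was thus far below type I KRT18 in this line. KRT81 ranged from 54.9 to 206 TPM over the WT libraries, and in CPM its mean was below that of KRT18 (50.8 against 82.5). In A2780 WT cells (n = 2) KRT8 stood at 123 TPM ± 0.141, KRT18 at 47.8 TPM ± 2.13 and KRT10 at 25.03 TPM ± 0.928. At such low levels the many processed copies of KRT8 in the genome matter: KRT8 pseudogenes held 158 to 242 counts per A2780 library and 114 to 247 per A2058 library, against 53 to 3105 and 81 to 844 counts of KRT8 itself.

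**Figure D1:**
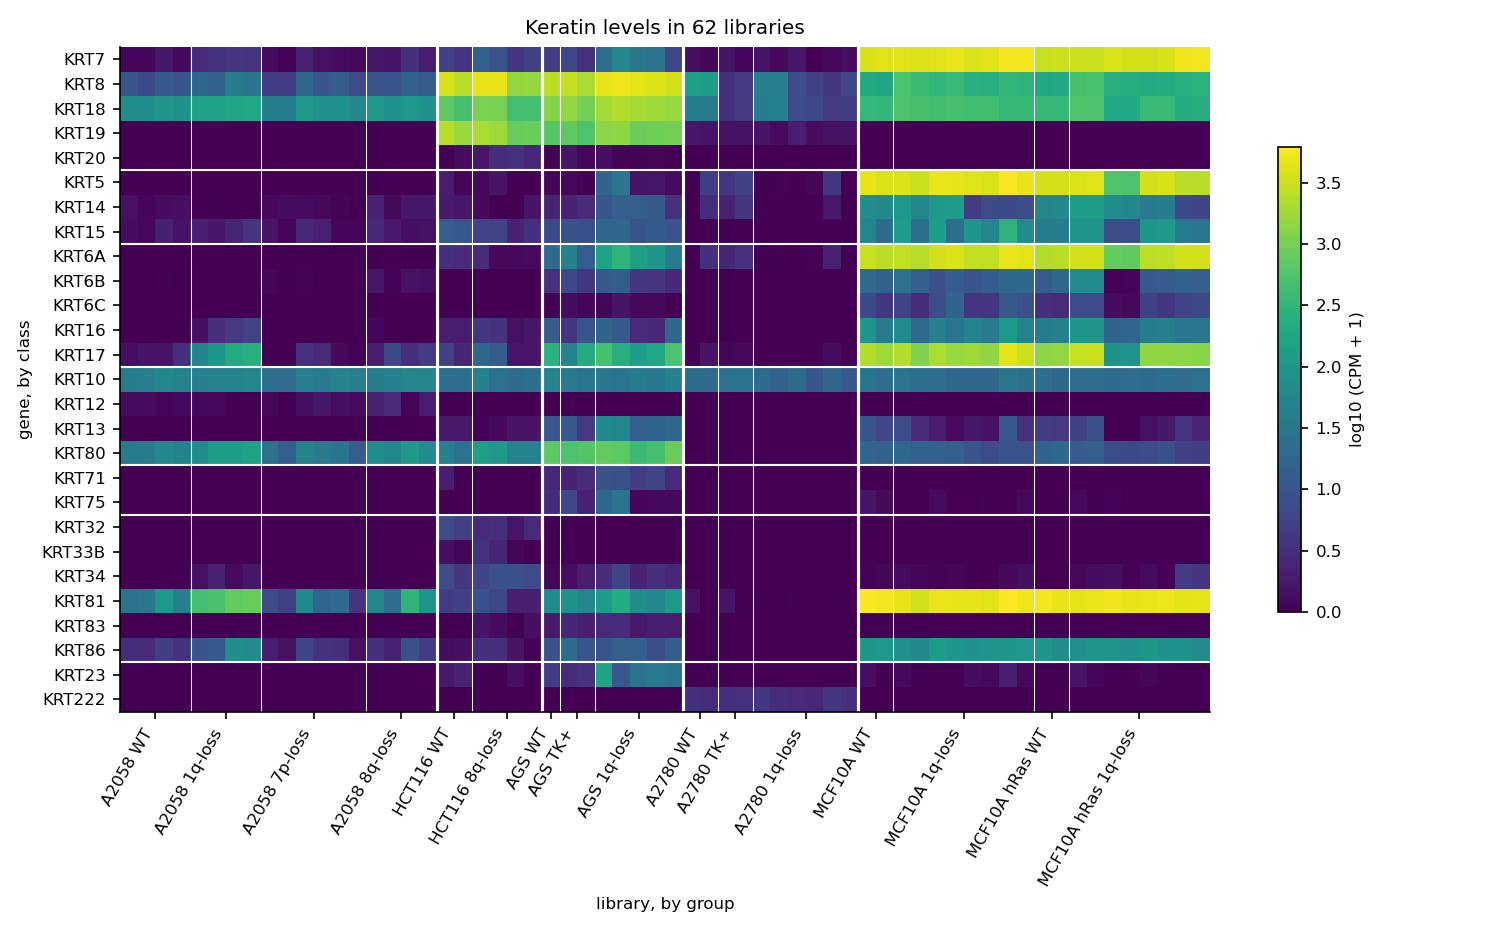
Heat map of keratin levels, with keratin genes in rows, the 62 libraries in columns grouped by line and group, and colour giving log10(CPM + 1). MCF10A libraries show KRT5, KRT6A, KRT7, KRT17 and KRT81, HCT116 and AGS libraries show KRT8, KRT18 and KRT19, and A2058 and A2780 libraries are pale in most rows.

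After 1q loss in A2058, most of the keratins that passed the filter on low counts were higher than in WT. The loss clones were each grown from a single cell, so arm loss and choice of clone cannot be told apart. Of 9 keratins tested, 8 were higher and none lower, against 49.6% of all genes called in either direction and 25.3% called higher. KRT7, KRT15 and KRT17 had fewer than 10 counts in at least 1 WT library, and a keratin low in WT enters the test mainly where it is higher after 1q loss. Of the 6 with at least 10 counts in every WT library, a limit chosen after seeing the data, 5 were higher and none lower, beside 23.4% higher among all genes that met it. Without the filter on low counts 29 keratins were tested, 12 higher and 2 lower (KRT14 and KRT27). The summed keratin level was 1312 to 2434 TPM in the 1q-loss libraries and 257 to 492 TPM in WT, without overlap.

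The stress-associated type I keratin KRT17 changed most. It stood at 50.7 and 99.7 CPM in clone 1 and 217 and 255 CPM in clone 2, against 0.406, 0.646, 0.649 and 2.33 CPM in WT. Every 1q-loss library was above every WT library, with a log2 fold change of 7.22 ± 0.66 (SE, edgeR adjusted p = 9.43e-06). The clone means were 74.7 times and 234 times the WT mean, or 133 times and 416 times without WT replicate 4, and the clones differed from each other (edgeR adjusted p = 0.0128).

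The hair keratins moved with it. KRT81 read 459 and 510 CPM in clone 1 and 756 and 806 CPM in clone 2, against 27.7, 30.5, 41.7 and 103 CPM in WT (log2 fold change 3.64 ± 0.42, edgeR adjusted p = 4.58e-05). Its near copy KRT86 read 8.21 and 9.91 CPM in clone 1 and 77.1 and 66.8 CPM in clone 2, against 1.86 to 3.92 CPM in WT (3.95 ± 0.75, adjusted p = 0.00141). KRT86 counts were 1.79% to 1.94% of KRT81 counts in clone 1 and 8.29% to 10.2% in clone 2, with 3.80% to 7.69% in WT. The ratio between the copies therefore differed between the clones, on either side of the WT range.

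The simple epithelial keratins rose by less. KRT18 stood at 150, 152, 173 and 180 CPM after 1q loss and at 73.9, 73.96, 86.8 and 95.4 CPM in WT, a log2 fold change of 0.99 ± 0.10 (edgeR adjusted p = 1.71e-05). KRT8, its type II partner, read 17.5 and 14.8 CPM in clone 1 and 39.3 and 28.96 CPM in clone 2, against 6.10 to 10.8 CPM in WT (1.498 ± 0.30, adjusted p = 0.00189). KRT7 rose from 0.130 to 0.785 CPM in WT to 1.96 to 2.93 CPM (2.98 ± 0.46, adjusted p = 3.48e-04), which remained a low level.

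KRT80, a keratin of differentiating cells, read 71.2, 129, 128 and 152 CPM after 1q loss against 36.5 to 60.4 CPM in WT (log2 fold change 1.36 ± 0.23, edgeR adjusted p = 5.77e-04). The basal keratin KRT15 had the largest edgeR adjusted p of the 8. It read 0.774 to 2.87 CPM against 0.216 to 1.15 CPM (1.49 ± 0.53, adjusted p = 0.0381). Its groups overlapped, and its adjusted p was 0.0658 with the libraries of each clone summed and 0.130 without replicate 2 of clone 2. KRT10 did not pass the test, at 41.5 to 51.4 CPM against 39.8 to 57.1 CPM (0.03). KRT16, the type I partner of KRT6A, was too low to pass the filter. Its 4 1q-loss libraries read 0.429 to 4.91 CPM and all 4 WT libraries were at 0. This gene is uncertain in A2058, since its pseudogenes held 0 to 130 counts per library against 0 to 130 counts of KRT16.

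**Figure D2:**
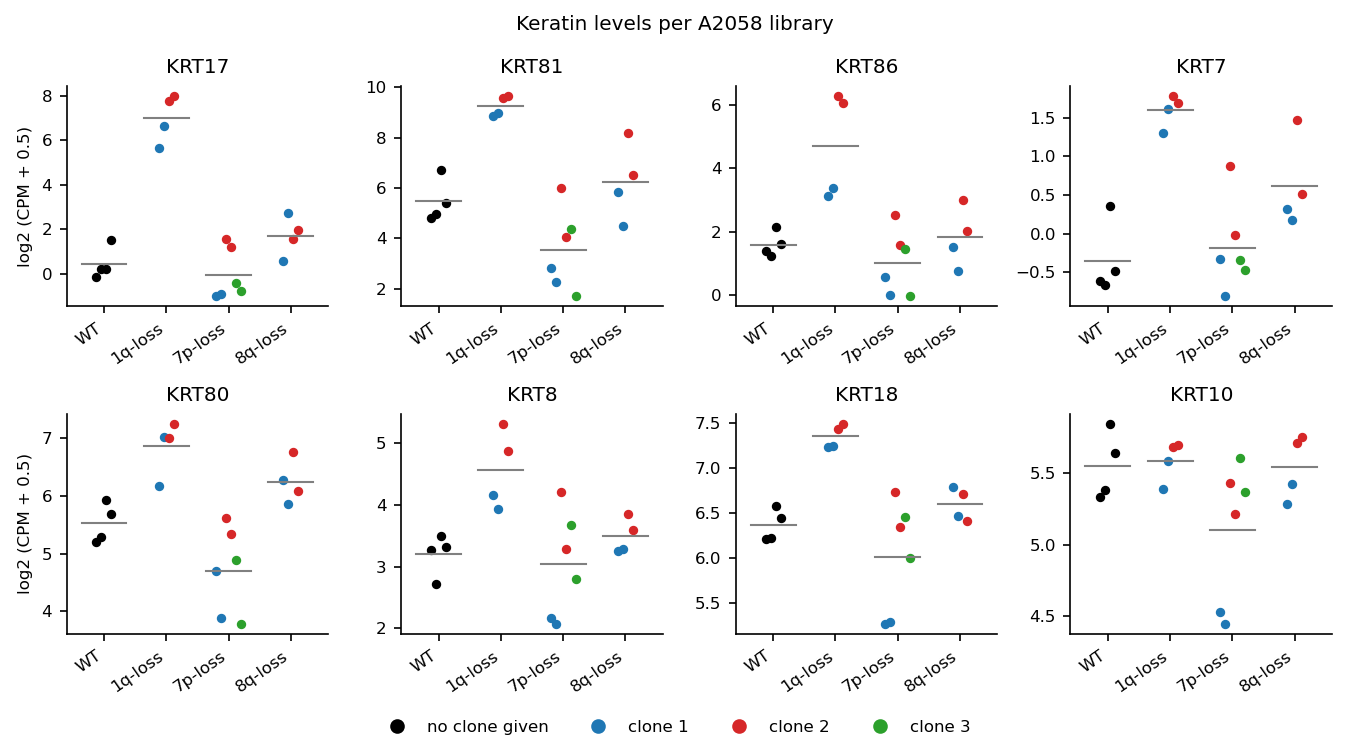
Levels of selected keratins in A2058, with log2(CPM + 0.5) on the vertical axis, groups on the horizontal axis, a point per library coloured by clone and a grey bar at the group mean. All 4 1q-loss libraries lie above all 4 WT libraries for KRT17, KRT81, KRT18 and KRT8, and the 7p-loss and 8q-loss libraries overlap WT for these genes.

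The genes that attach or accompany keratin filaments changed in both directions after 1q loss in A2058. Since 49.6% of all genes were called, the shares of called hemidesmosome and linker genes (57.1%), other intermediate filament genes (54.5%) and epithelial transcription factors (40%) lie near that of all genes. Of 4 desmosome genes tested (the plaques that anchor keratins between cells), 3 rose and 1 fell: plakoglobin JUP rose by 1.27 log2 units, PKP3 by 0.74, and desmoplakin DSP fell by 0.84. Of 7 hemidesmosome and linker genes, 3 rose and 1 fell, with COL17A1 at 4.51, ITGB4 at 1.45 and ITGA6 at -1.46 log2. Of 11 other intermediate filament genes, none rose and 6 fell, among them the neurofilament NEFL at -2.55, nestin NES at -2.07 and SYNM at -1.89. The cornified envelope list gave 1 rise and 2 falls among 4 tested genes, PI3 at 8.86, SPRR2D at -2.68 and FLG at -1.71. The epithelial transcription factors gave 1 rise and 1 fall among 5, KLF5 at 0.82 and GRHL1 at -2.23.

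Markers of cell identity moved beside the keratins in the A2058 1q-loss libraries. All 7 melanocyte markers fell, and their summed level was 49.8 to 255 CPM against 2501 to 4413 CPM in WT. Of the 7 epithelial markers, CDH1, EPCAM, CLDN7, ESRP1 and ESRP2 were under 1 CPM in every 1q-loss library, and the summed level was 5.80 to 8.53 CPM against 10.7 to 11.6 CPM. CDH3 and CLDN4 rose and ESRP1 fell. The summed mesenchymal markers stood at 10200 to 14970 CPM against 3925 to 5080 CPM, with 4 of 7 higher and 1 lower. Of the ovarian and Mullerian markers both tested were higher, WT1 by 1.12 log2 units and PAX8, which stayed under 1 CPM, and the list summed to 15.96 to 19.75 CPM against 7.11 to 8.83 CPM. MUC16, the other gene of that list, was at 0. The part of these markers in the keratin result was not tested.

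The other arm losses in A2058 gave no keratin call. After 7p loss, 0 of 8 keratins were called by edgeR, with 0 at an unadjusted p under 0.05 and 0 called by DESeq2, against 0.908% of all genes called. KRT81 read 2.79 to 64.1 CPM with a median of 11.4 after 7p loss (log2 fold change -1.41 ± 0.78, adjusted p = 0.475), and KRT80 read 13.3 to 48.7 CPM with a median of 27.1 (-0.71 ± 0.35, adjusted p = 0.418). After 8q loss, 0 of 10 were called by edgeR, with 4 at an unadjusted p under 0.05 and 2 called by DESeq2 (KRT6B and KRT80), against 2.03% of all genes. Without the filter edgeR called the same 2, and without clone 2 replicate 1 it called 1. KRT80 read 57.5, 67.4, 77.3 and 108 CPM after 8q loss, and 1 of these 4 libraries overlapped the WT range (0.73 ± 0.21, adjusted p = 0.144).

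Clones that lost the same arm differed in keratins in A2058. Between the 1q-loss clones, 4 of 12 keratins differed (KRT86, KRT81, KRT8 and KRT17) against 6.13% of all genes, and clone 2 had the higher level of each. Between the 7p-loss clones, 5 of 9 differed (KRT17, KRT10, KRT18, KRT15 and KRT8) against 29.4%. The 7p-loss clone 1 read 38.1 and 38.7 CPM for KRT18, the other 4 libraries and all WT libraries being higher, and 22.6 and 21.3 CPM for KRT10. The same clone had a desmosome sum of 65.4 to 78.4 CPM, against 184 to 193 CPM in clones 2 and 3 and 162 to 189 CPM in WT, and a mesenchymal sum of 6048 to 8747 CPM against 2913 to 5333 CPM in clones 2 and 3. The part of these genes in its keratin levels was not tested. Between the 8q-loss clones, 0 of 12 differed by edgeR, with 4 at an unadjusted p under 0.05 and 0 called by DESeq2, against 0.592%. Without the filter on low counts the clones differed in 7, 9 and 2 keratins after 1q, 7p and 8q loss. Between the 7p-loss clones 3 differed without clone 2 replicate 1, and between the 8q-loss clones 1 differed without clone 1 replicate 1 and 2 without clone 2 replicate 2.

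In HCT116, loss of 8q gave no keratin call while the 2 clones differed strongly. By edgeR 0 of 23 keratins were called, with 5 at an unadjusted p under 0.05, 0 called by DESeq2 and 2 without the filter on low counts, against 0.140% of all genes. Between the clones 10 of 18 differed, against 18.5% of all genes, named by adjusted p as KRT17, KRT8, KRT19, KRT18, KRT80, KRT81, KRT7, KRT33B, KRT16 and KRT15. The count was 5 without either replicate of clone 2. KRT8 read 4649 and 4573 CPM in clone 1, 1511 and 1560 CPM in clone 2, and 3678 and 2528 CPM in WT. The clones lay on either side of WT, so that the log2 fold change over both was -0.01 ± 0.45.

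The partners of KRT8 followed the same order of clones in HCT116. KRT18 read 1080 and 1034 CPM in clone 1, 447 and 470 CPM in clone 2 and 713 and 492 CPM in WT. KRT19 read 2026 and 1748 CPM in clone 1, 821 and 865 CPM in clone 2 and 2451 and 1621 CPM in WT, so that clone 1 overlapped WT and clone 2 was below it. KRT17 read 18.4 and 12.3 CPM in clone 1 and 0.691 and 0.699 CPM in clone 2, against 4.61 and 1.52 CPM. KRT80 was above WT in both clones, at 142, 113, 50.7 and 47.1 CPM against 46.0 and 27.2 CPM, and KRT15 was below WT in both, at 1.28 to 5.005 CPM against 12.4 and 10.1 CPM. Neither passed the test (KRT80 log2 fold change 1.27 ± 0.47, edgeR adjusted p = 0.739, KRT15 -1.74 ± 0.51, adjusted p = 0.486). Vimentin, the filament of mesenchymal cells, rose by 1.85 log2 units in the same comparison, and the mesenchymal markers summed to 110 to 144 CPM after 8q loss against 52.0 to 60.3 CPM. The epithelial markers summed to 619 to 699 CPM in clone 1, 271 to 274 CPM in clone 2 and 310 to 337 CPM in WT, and the desmosome genes to 882 to 1195, 473 to 492 and 468 to 619 CPM. Clone 1 was thus above WT in both sums. Their part in the HCT116 keratin levels was not tested.

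In AGS, 6 of 21 keratins were called after 1q loss, all higher, against 7.55% of all genes in either direction and 3.38% higher. A further 6 keratins had an unadjusted p under 0.05 without passing the adjusted threshold. DESeq2 called 11, and edgeR without the filter on low counts 10, with no share of all genes given for these alternatives. All 6 keratins called by edgeR with the filter were among the 19 with at least 10 counts in every control library. Of all genes that met that limit, 2.81% were called higher. Keratins took 0.750% to 1.07% of the counts in the 1q-loss libraries, above the 3 controls. These calls rest on 3 control libraries: without any 1 of them, and with the 2 TK+ libraries alone, edgeR called 0 keratins. The count was 3 without clone 1, 3 without clone 6, 1 without clone 7 and 10 without clone 11.

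The simple keratins, already high in AGS, rose by less than 1 log2 unit. KRT8 read 4711, 4960, 4295, 3923 and 3472 CPM in clones 1, 4, 6, 7 and 11, against 2578 CPM in WT and 2807 and 2055 CPM in TK+ (log2 fold change 0.79 ± 0.17, edgeR adjusted p = 0.0295). KRT19 read 1338, 1412, 852, 899 and 973 CPM against 616, 714 and 550 CPM (0.81 ± 0.20, adjusted p = 0.0443). All 5 loss clones were above all 3 controls for both genes. KRT18 read 1624 to 2284 CPM against 1006 to 1500 CPM, again without overlap, and did not pass the test (0.61 ± 0.17, adjusted p = 0.0606).

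The larger rises in AGS were in keratins that the line held at low level. KRT23 read 162, 9.87, 26.9, 34.5 and 27.4 CPM in clones 1, 4, 6, 7 and 11, against 3.62 CPM in WT and 2.13 and 2.49 CPM in TK+ (log2 fold change 4.24 ± 0.94, edgeR adjusted p = 0.0306). KRT7, of ductal epithelium, read 21.9, 56.0, 33.7, 27.8 and 5.59 CPM against 3.89, 5.42 and 2.43 CPM (2.90 ± 0.65, adjusted p = 0.0315). In clone 11 KRT7 was thus barely above the highest control.

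Basal and stress-associated keratins were among the 6 as well. KRT14 read 9.37, 13.5, 12.9, 10.5 and 2.46 CPM against 1.37, 1.42 and 1.84 CPM (log2 fold change 2.67 ± 0.51, edgeR adjusted p = 0.0198). KRT6A read 155, 287, 144, 102 and 34.1 CPM against 18.7, 43.2 and 12.6 CPM, with clone 11 inside the control range (2.55 ± 0.66, adjusted p = 0.0479). KRT17 read 133 to 524 CPM against 50.7 to 266 CPM, overlapped, and was not called (0.83 ± 0.58, adjusted p = 0.402).

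Single AGS clones held further keratins. KRT5 read 15.7 and 30.3 CPM in clones 1 and 4 and 0.333 to 0.725 CPM in the other 3, against 0.0592 to 0.194 CPM in the controls (log2 fold change 6.06 ± 1.93, edgeR adjusted p = 0.0862). KRT75, a companion-layer keratin, read 18.1 and 27.6 CPM in the same clones and 0.118 to 0.266 CPM in the others, against 1.24 to 5.42 CPM. For KRT75 the controls lay between these sets of clones. KRT16 counts in AGS are uncertain too, since its pseudogenes held 47 to 1624 counts per library against 27 to 255 counts of KRT16.

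Partner genes in AGS differed by list, beside 7.55% of all genes called. Of 6 desmosome genes none was called by edgeR, with 2 at an unadjusted p under 0.05. Of 8 hemidesmosome and linker genes 1 rose and 2 fell: COL17A1 of the hemidesmosome rose by 2.06 log2 units while DST, which links keratin to the hemidesmosome, and the integrin ITGA6 fell by 0.90 and 0.69. Of 9 other intermediate filament genes 2 rose, SYNC by 2.17 and desmin DES by 2.09 log2 units. Of 9 cornified envelope genes tested 1 rose, the crosslinking enzyme TGM1 by 1.83, and 5 more had an unadjusted p under 0.05, with a median over the 9 of 1.53. Of 10 epithelial transcription factors 1 fell. The summed epithelial markers were 1730 to 2512 CPM in the loss clones and 2036 to 2316 CPM in the controls, which overlapped, and 1 of 6 tested was called, ESRP1 at -0.84. The mesenchymal markers summed to 49.2 to 376 CPM against 40.02 to 136 CPM, with 0 of 4 called by edgeR and 1 at an unadjusted p under 0.05. Of the ovarian and Mullerian markers MUC16 rose by 4.97 log2 units, from 0 to 2 counts per control library to 5 to 81, and PAX8 and WT1 were under 1 CPM throughout. The intestinal sums (231 to 443 against 341 to 402 CPM) and melanocyte sums (10.5 to 23.1 against 10.4 to 13.7 CPM) overlapped, with 0 of 3 called in each by edgeR and 1 at an unadjusted p under 0.05. The part of these markers in the AGS keratin levels was not tested. A comparison of AGS TK+ with WT has no test, since WT is 1 library: KRT8 read 2807 and 2055 CPM in TK+ against 2578 CPM, and KRT17 read 50.7 and 214 CPM against 266 CPM.

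**Figure D3:**
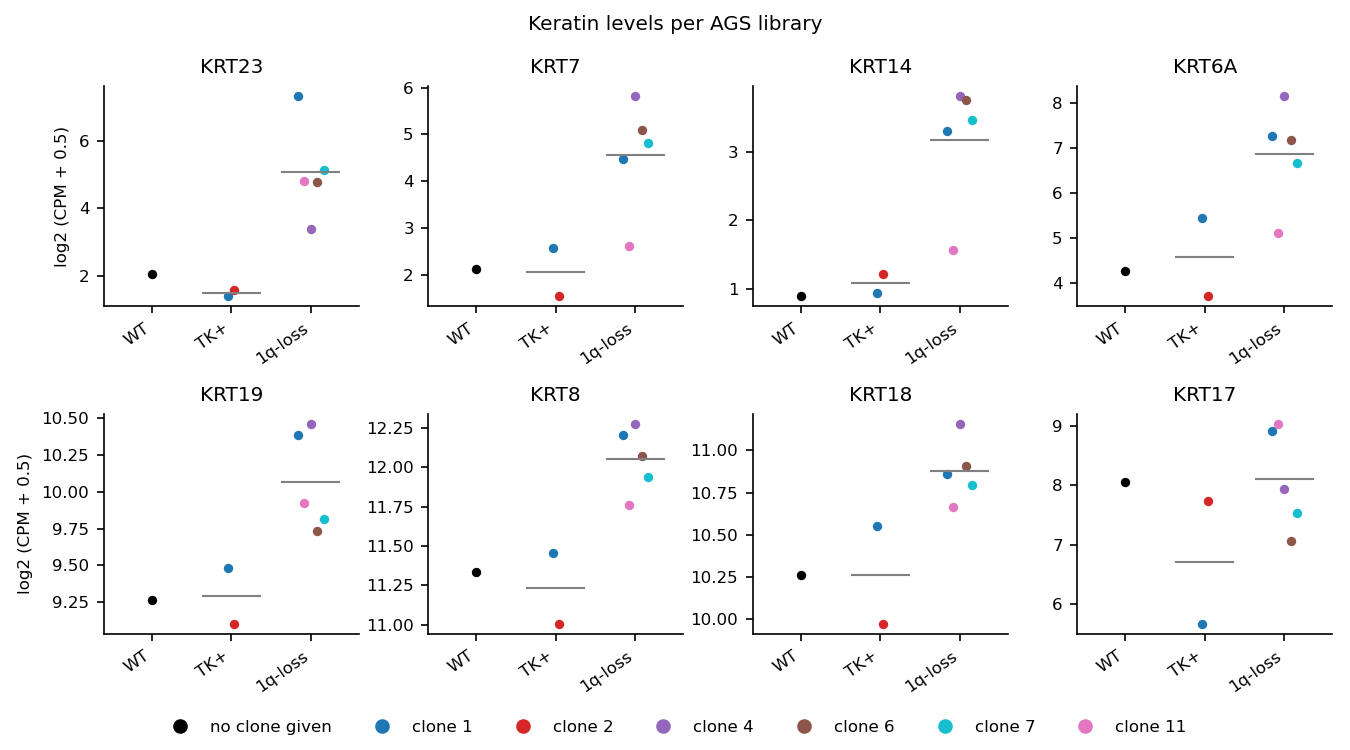
Levels of selected keratins in AGS, with log2(CPM + 0.5) on the vertical axis, WT, TK+ and 1q-loss on the horizontal axis, a point per library and a grey bar at the group mean. The 5 loss clones lie above the 3 controls for KRT8, KRT19, KRT14, KRT7 and KRT23.

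In A2780, the KRT8 and KRT18 pair was much lower in TK+ cells, which keep 1q, than in WT. Of 10 keratin entries tested, 2 fell and 1 rose, against 11.2% of all genes called. KRT8 read 140 and 131 CPM in WT and 2.34 and 3.30 CPM in TK+ (log2 fold change -5.59 ± 0.13, edgeR adjusted p = 9.19e-11). KRT18 read 38.6 and 38.4 CPM in WT and 2.25 and 3.30 CPM in TK+ (-3.79 ± 0.16, adjusted p = 8.19e-09). KRT8 fell more than its partner, and the ratio of KRT8 to KRT18 in TPM went from 2.65 and 2.49 in WT to 0.758 and 0.730 in TK+. KRT10 read 20.7 and 20.4 CPM in WT and 25.5 and 26.8 CPM in TK+ (0.35 ± 0.10, adjusted p = 0.0484), a call that was lost without either WT replicate (0.307 and 0.351).

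After 1q loss in A2780 0 of 9 keratins were called by edgeR against the 4 WT and TK+ libraries together, with 3 at an unadjusted p under 0.05 and 1 called by DESeq2 (KRT4), against 11.8% of all genes. Without WT replicate 1 edgeR called 1. The controls themselves were split by the difference between WT and TK+ for KRT8 and KRT18. The clones differed in 2 of 8 keratins, KRT18 (edgeR adjusted p = 6.08e-08) and KRT8 (adjusted p = 2.56e-06), against 20.6% of all genes. The count was 6 without the filter, 4 without clone 5 replicate 2 and 5 without clone 6 replicate 2. Clone 2 read 43.8 and 41.4 CPM for KRT8, clone 5 read 6.95 and 4.69 CPM, and clone 6 read 3.08 and 5.61 CPM. For KRT18 clone 2 read 39.4 and 42.9 CPM, above both WT libraries, while clone 5 read 6.99 and 5.92 CPM and clone 6 read 3.22 and 3.84 CPM. All 6 loss libraries were below WT for KRT8, and clones 5 and 6 lay near TK+ for both genes. The KRT8 to KRT18 ratio in TPM was 0.578 to 1.07 in the loss libraries, below both WT values in clone 2 as well.

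Basal keratins appeared in 4 of the 10 A2780 libraries, which were WT replicate 2, both TK+ libraries and clone 6 replicate 1. These held 65 to 99 counts of KRT5, 26 to 54 of KRT6A and 17 to 58 of KRT14, whereas the other 6 held 0 to 4, 0 to 2 and 0 to 1. The other library of the same group or clone lacked them in WT and in clone 6. Without these 4 libraries edgeR still called 0 keratins after 1q loss. Without WT replicate 2 the TK+ comparison called 5 keratins, and without TK+ replicate 1 it called 6, with KRT5, KRT14 and KRT6A among them both times.

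**Figure D4:**
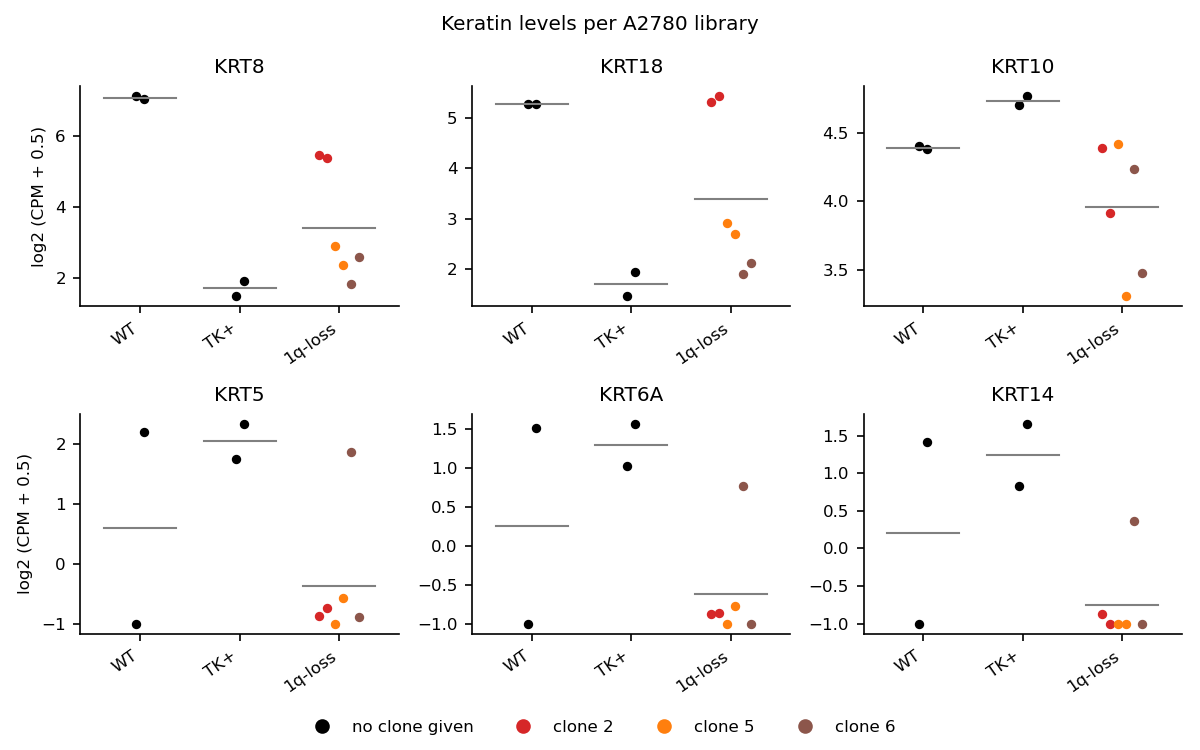
Levels of selected keratins in A2780, with log2(CPM + 0.5) on the vertical axis, WT, TK+ and 1q-loss on the horizontal axis, a point per library coloured by clone and a grey bar at the group mean. KRT8 and KRT18 are low in TK+ and in clones 5 and 6, and KRT5 is high in both TK+ libraries, 1 of 2 WT libraries and 1 of 6 loss libraries.

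Beside 11.2% of all genes called, the A2780 partner genes in TK+ gave 3 rises and 2 falls among 7 desmosome genes, with DSG3 at 2.29, PKP2 at -2.07 and DSG2 at 0.96 log2. Of the 7 mesenchymal markers 1 rose and 3 fell (CDH2 -2.72, ZEB2 -3.85 and COL1A1 -2.24), with a summed level of 1080 to 1252 CPM against 1201 to 1279 CPM, which overlapped. The melanocyte markers summed to 51.4 to 61.1 CPM in TK+ against 143 to 144 CPM in WT, and 1 of 3 tested was called, TYRP1 at -1.37. After 1q loss their sum was 5.68 to 6.90 CPM in clone 2, 33.3 to 34.1 CPM in clone 5 and 95.8 to 101 CPM in clone 6. The mesenchymal sum in the 1q-loss libraries was 1452 to 2001 CPM, above WT and TK+, and the desmosome sum was 68.2 to 120 CPM, below the 132 to 164 CPM of WT and TK+. Their part in the A2780 keratin levels was not tested. CDH1, CDH3, CLDN4, CLDN7, ESRP1 and ESRP2 were under 1 CPM in all WT and TK+ libraries, and EPCAM, the other epithelial marker, read 1.27 and 0.986 CPM in WT and 0.793 and 1.47 CPM in TK+. The 7 epithelial markers summed to 2.35 to 3.15 CPM in WT and 3.31 to 4.36 CPM in TK+, and 0 of 4 tested were called by edgeR, with 1 at an unadjusted p under 0.05. Of the 3 ovarian and Mullerian markers, PAX8 and WT1 were under 1 CPM in every A2780 library.

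In MCF10A, loss of 1q gave no keratin call by edgeR. Of 16 keratins tested 0 passed, with 2 at an unadjusted p under 0.05 and 1 called by DESeq2 (KRT8), against 2.04% of all genes. EdgeR called 1 without the filter, and 1 without clone 1, clone 3 or clone 4. KRT8 read 173 and 198 CPM in WT and 526 and 372 CPM in clone 1, 314 and 376 CPM in clone 2, 256 and 248 CPM in clone 3 and 321 and 293 CPM in clone 4. All 8 loss libraries were above both WT libraries, with a log2 fold change of 0.87 ± 0.23 (edgeR adjusted p = 0.0884, DESeq2 adjusted p = 0.00228). The edgeR value was 0.0363 without clone 1 and 0.0256 without clone 3. KRT18 read 331 to 545 CPM with a median of 443 against 320 and 332 CPM (0.42 ± 0.16, adjusted p = 0.284). The high keratins of the line overlapped between the groups: KRT5 read 3087 to 5821 CPM against 3770 and 4493 CPM, and KRT81 read 3403 to 6197 CPM against 5406 and 5928 CPM.

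The 4 MCF10A clones differed from each other in 12 of 16 keratins, against 8.51% of all genes. KRT14, the basal partner of KRT5, had the smallest p (edgeR adjusted p = 1.90e-06). It read 74.1 and 65.1 CPM in WT, 104 and 55.4 CPM in clone 1, 107 and 124 CPM in clone 2, 3.71 and 6.58 CPM in clone 3 and 6.10 and 7.03 CPM in clone 4. Clones 3 and 4 thus had little KRT14 while KRT5 stayed at 3773 to 5821 CPM in them. KRT6A came next (adjusted p = 7.35e-04), highest in clone 4 at 4741 and 4286 CPM and lowest in clone 1 at 2779.8 and 2375 CPM, with 2941 and 2481 CPM in WT. KRT80, KRT18, KRT6C, KRT8, KRT17, KRT7, KRT13 and KRT5 followed with adjusted p from 0.00745 to 0.0308, and KRT86 and KRT6B were the other 2. The mesenchymal markers summed to 5266 to 9022 CPM in clone 4, 1643 to 2269 CPM in clone 1, 625 to 1493 CPM in clone 2 and 560 to 1260 CPM in clone 3, against 1139 to 2367 CPM in WT. The epithelial sums, 1090 to 1462 CPM over the clones and 1051 to 1224 CPM in WT, overlapped. The part of these markers in the clone differences was not tested.

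Libraries numbered 1 and 2 in MCF10A without hRas differed in some keratins. In 5 of 5 pairs of WT and clone libraries the first had more KRT15 (1.86 to 6.29 times), KRT16 (1.40 to 3.49 times), KRT17 (1.17 to 2.03 times), KRT81 (1.07 to 1.35 times) and KRT5 (1.08 to 1.27 times). KRT13 was higher in the first in 3 of 3 pairs that reached 5 CPM (1.71 to 3.97 times). With hRas the first was higher in 3, 1, 1, 2 and 1 of 5 pairs for KRT15, KRT16, KRT17, KRT81 and KRT5. The labels call these biological replicates and name no batch, and what sets the numbers apart was not tested.

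hRASV12 alone, in cells that keep 1q, was tested in 2 against 2 libraries. Of 17 keratins 1 was called, lower, against 1.62% of all genes. Without the filter on low counts 9 were called, all lower, and no share of all genes is given for that fit. Keratins near 0 enter it: 34 keratins were at 0 in both hRas WT libraries and 26 in both WT libraries. KRT17 read 2235 and 1757 CPM in WT and 1358 and 1492 CPM in hRas WT (log2 fold change -0.49 ± 0.11, edgeR adjusted p = 0.0473). The groups did not overlap, but the call was lost by DESeq2 (adjusted p = 0.221), without either WT replicate (0.341 and 0.212) and without hRas replicate 1 (0.294). DESeq2 called KRT7 instead, which read 3669 and 4113 CPM in WT and 2959 and 3237 CPM in hRas WT. Of 8 desmosome genes 5 fell, JUP by 0.68, DSC2 by 0.66 and DSG3 by 0.61 log2 units, and of 13 epithelial transcription factors 3 fell. The mesenchymal markers gave 3 rises and 1 fall among 7, with ZEB1 at 3.33, ZEB2 at 1.78 and VIM at 1.37. Their summed level was nevertheless lower, at 1090 to 1128 CPM in hRas WT against 1139 to 2367 CPM in WT. The 7 epithelial markers summed to 920 to 923 CPM in hRas WT against 1051 to 1224 CPM in WT, with CDH1 (-0.41) and ESRP1 (-0.36) called lower and 5 at an unadjusted p under 0.05. Their part in the KRT17 result was not tested.

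With hRas, 1q loss again gave no call by edgeR: 0 of 17 keratins, with 2 at an unadjusted p under 0.05 and 1 by DESeq2 (KRT34), against 0.214% of all genes. KRT8 read 180 and 192 CPM in hRas WT and 494 and 510 CPM in clone 1, 236 and 229 CPM in clone 2, 212 and 221 CPM in clone 3 and 250 and 259 CPM in clone 4. All 8 loss libraries were above both controls (log2 fold change 0.70 ± 0.37, edgeR adjusted p = 0.405). KRT80 went the other way, at 4.07 to 13.5 CPM with a median of 6.42 against 14.98 and 17.6 CPM, again without overlap (-1.12 ± 0.38, adjusted p = 0.262). The hair keratin KRT34 was seen in clone 4, at 3.54 and 2.97 CPM, and did not exceed 0.395 CPM elsewhere with hRas.

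The change with 1q loss was not shown to differ by hRas. The interaction was called for 0 of 19 keratins by edgeR, with 1 at an unadjusted p under 0.05 and 0 by DESeq2, and 0% of all genes were called. For KRT8 it was -0.18 ± 0.44 log2 units. Within the 1q-loss cells, hRas gave 0 of 16 keratins by edgeR, with 1 at an unadjusted p under 0.05 and 1 by DESeq2 (KRT34), against 1.20% of all genes. Without hRas clone 1 it gave 3.

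The hRas clones differed from one another in 15 of 17 keratins, against 65.3% of all genes. By adjusted p the first were KRT17 (edgeR adjusted p = 6.82e-28), KRT5 (3.35e-24), KRT6A (1.49e-22), KRT6B (3.44e-22), KRT14 (8.07e-22) and KRT15 (5.88e-21). Then came KRT16, KRT18, KRT8 and KRT7. KRT10 and KRT86 did not pass.

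Clone 2 with hRas held much less KRT5, KRT15 and stress-associated keratin than hRas WT. In that clone KRT7 and KRT8 were higher, KRT14 was barely above hRas WT, and KRT81, KRT86 and KRT10 overlapped. KRT5 read 568 and 546 CPM there, against 3493 and 3573 CPM in hRas WT and 2392 to 4100 CPM in the other 3 clones, which was 6.35 times lower than hRas WT. KRT17 read 84.8 and 89.5 CPM against 1358 and 1492 CPM, 16.4 times lower. KRT6A read 781 and 733 CPM against 2246 and 2503 CPM (3.14 times lower), KRT15 read 7.26 and 7.21 CPM against 38.5 and 38.1 CPM (5.29 times lower), and KRT6B was reduced to 2 and 4 counts against 247 and 372. KRT14, in contrast, read 65.8 and 56.8 CPM in clone 2, barely above the 52.2 and 55.4 CPM of hRas WT. It was low in clone 4 at 6.13 and 5.23 CPM. KRT81 read 5091 and 4710 CPM in clone 2, inside the hRas WT range of 4659 to 5231 CPM, and KRT7 read 3766 and 3545 CPM against 2959 and 3237 CPM. KRT18 was lower at 180 and 184 CPM against 330 and 331 CPM, and so was KRT80 at 6.11 and 6.47 CPM, as in every hRas loss clone. Type I keratins were 3.14% and 3.28% of all keratin TPM in clone 2 and 10.4% and 11.4% in hRas WT.

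The promoter of KRT5, the most abundant basal keratin, is shown with that of KRT10, which read 17.6 to 29.9 CPM over all MCF10A libraries. Both are the 250 bases before the RefSeq start in GRCh38.p14, on the minus strand, and capitals mark the A/T-rich words TATAAA and ATAAAA. KRT5 lies at chr12:52520395-52520644 and KRT10 at chr17:40822615-40822864.
KRT5: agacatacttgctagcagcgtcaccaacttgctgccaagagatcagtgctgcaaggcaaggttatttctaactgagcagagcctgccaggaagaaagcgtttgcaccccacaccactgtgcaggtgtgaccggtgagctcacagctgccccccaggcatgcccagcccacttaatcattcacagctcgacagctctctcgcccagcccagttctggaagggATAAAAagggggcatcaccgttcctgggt
KRT10: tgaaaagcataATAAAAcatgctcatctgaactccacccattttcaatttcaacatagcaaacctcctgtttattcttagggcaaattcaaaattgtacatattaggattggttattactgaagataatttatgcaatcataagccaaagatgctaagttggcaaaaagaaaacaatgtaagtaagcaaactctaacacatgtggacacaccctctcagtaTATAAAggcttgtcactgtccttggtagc
In both, such a word starts 29 bases before the start site. RefSeq windows of 250 bases before and 50 after the start were matched for 34 keratin genes, with 38 windows. Only the 250 bases before the start were searched for the shares below. The 34 genes do not include KRT6A, KRT6B, KRT7, KRT14, KRT15, KRT16, KRT17, KRT18, KRT19, KRT23, KRT80, KRT81 and KRT86, so these shares do not cover most of the keratins described above. TATAAA, read on both strands, was in 21 of these 38 windows and in 10.7% of all 35116 windows, and ATAAAA, which can overlap it, in 23 of 38 and 14.8%. The GC word GGGCGG was in 4 of 38 and 42.6%, and the AP-1 word TGANTCA in 0 of 38 and 6.57%. These are letter matches within the 250 searched bases only.

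Markers beside the keratins in hRas clone 2 were as follows, the single genes having been chosen after their values were seen. The 7 epithelial markers summed to 75.7 and 78.5 CPM against 920 and 923 CPM in hRas WT. CDH1 read 3.27 and 2.62 CPM against 214 and 219 CPM, and TP63, the transcription factor of basal epithelium, read 0.513 and 0.634 CPM against 56.8 and 60.4 CPM. The mesenchymal markers summed to 5158 to 5477 CPM against 1090 to 1128 CPM, and VIM read 1520 and 1588 CPM against 227 and 254 CPM. Clone 4 had the highest mesenchymal sum, 23460 to 24090 CPM, with KRT5 at 2392 and 2515 CPM and an epithelial sum of 606 to 617 CPM. The summed desmosome genes stood at 840 to 857 CPM in clone 2 and 1824 to 1857 CPM in hRas WT. The part of these genes in the keratin levels was not tested.

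**Figure D5:**
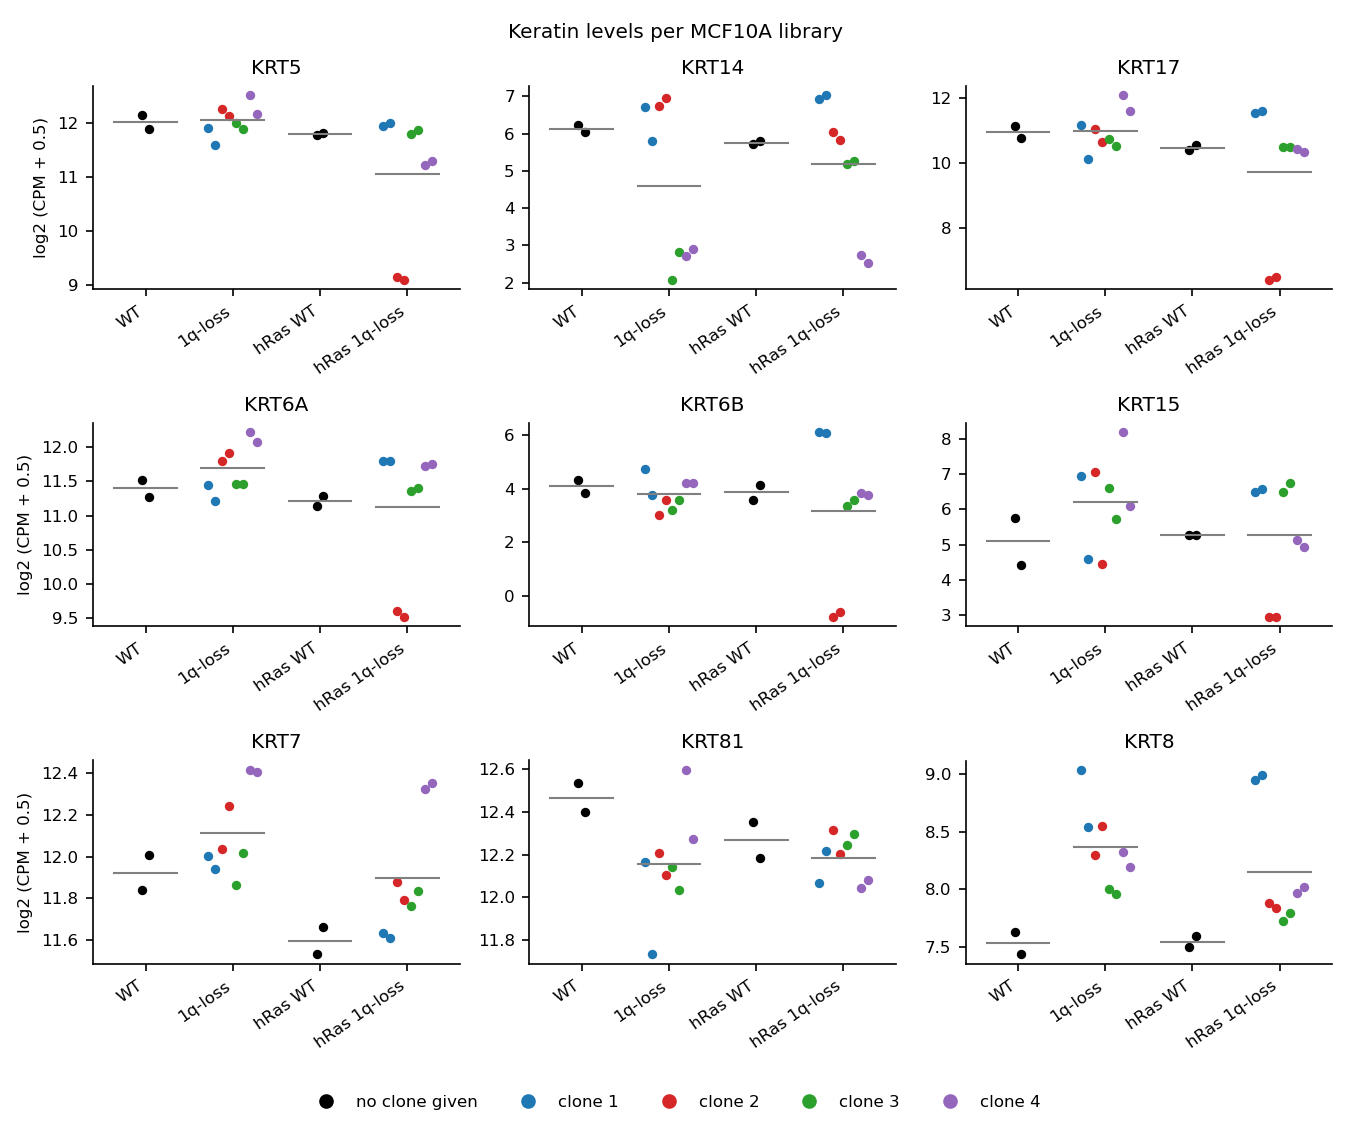
Levels of selected keratins in MCF10A, with log2(CPM + 0.5) on the vertical axis, WT and 1q-loss without and with hRas on the horizontal axis, a point per library coloured by clone and a grey bar at the group mean. KRT5 and KRT17 are low in hRas clone 2, KRT14 is low in clones 3 and 4 without hRas and in clone 4 with it, and KRT8 lies above WT in all loss libraries.

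KRT8 was above every control library in every 1q-loss library of A2058, AGS, MCF10A and MCF10A with hRas, and below both WT libraries in every 1q-loss library of A2780, where clone 6 replicate 1, at 3.08 CPM, lay within the TK+ range and the other 5 lay above it. Its log2 fold change was 1.498 ± 0.30 in A2058, 0.79 ± 0.17 in AGS, 0.87 ± 0.23 in MCF10A and 0.70 ± 0.37 in MCF10A with hRas, the first 2 of which were called by edgeR. In A2780 it was -1.98 ± 1.11 (adjusted p = 0.284). How many of all genes lay above every control in the same way was not counted, and each MCF10A control group held 2 libraries. KRT18 was above every control library in A2058 and AGS, whereas in MCF10A with hRas clones 2 and 4 were below the controls. KRT17 was called in A2058 alone among the 1q-loss comparisons, and the difference between lines was not tested.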

How the data were processed

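Poly(A) RNA was selected with poly-T beads and copied with random hexamers, per the labels' protocols. The deposited files hold whole-number counts per gene, which the authors made with HISAT2 2.0.5, featureCounts 1.5.0-p3 and hg38, per the submitters' processing notes. The A2780 tables carry GRCh37 coordinates instead and were tested only among themselves. Every row named a gene.

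Counts were tested with edgeR 4.0.16 (R 4.3.3) after filterByExpr (minimum count 10, total 15) and TMM scaling, within each line. DESeq2 1.42.0, other scaling, no filter, summed clones, a replicate block and left-out libraries were alternatives. A clone test compared clones within a group. TPM used the gene lengths in the tables. The tests were run on simulated counts of independent libraries with a fixed spread and, in the group comparisons, no clone effect. That check does not cover libraries grouped in differing clones. Named genes were the called keratins (up to 10 per comparison), 12 common keratins, members with a mean of 1 CPM or more for their level, and the called partner genes with the largest change (up to 3 per list). The members and lists were chosen with earlier results of these data known. Library numbers were checked for pairing by the correlation of deviations and were not taken to pair any comparison. In A2058 1q-loss all 3 correlations were above 0 (0.09 to 0.30), and in MCF10A 1q-loss the median was 0.20. Libraries of the same number thus shared some deviation there.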

Additional observations from a re-analysis of the deposited data

Results flagged for a closer look

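A library far from the others of its group was found in 4 of 72 gene and group pairs of 4 to 10 libraries, where chance flags about 1 in 20. KRT81 in A2058 7p-loss clone 2 replicate 1 read 64.1 CPM, with the nearest of the other 5 libraries at 20.4. KRT17 in A2058 WT replicate 4 read 2.33 CPM, with the nearest at 0.649. KRT8 in MCF10A 1q-loss clone 1 replicate 1 read 526 CPM, with the nearest at 376. KRT15 in MCF10A 1q-loss clone 4 replicate 1 read 290 CPM, with the nearest at 134. KRT80 went opposite ways after 1q loss. Every A2058 1q-loss library was above its controls, with a mean log2 change over clones of 1.34. Every MCF10A hRas 1q-loss library was below its controls, with -1.22. The latter change did not pass the test (edgeR adjusted p = 0.262). KRT80 overlapped its controls after 1q loss in MCF10A without hRas (6.69 to 18.3 CPM against 14.7 to 16.3) and in AGS (380 to 850 CPM against 530 to 678). The difference between the lines was not tested.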

How the results depend on the processing

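No called keratin changed sign under an alternative that was run; among keratins that were not called, some did, such as KRT5 in A2780 TK+. Of the counts of calls under alternatives, 166 stayed within 1.5 times the value reported and 48 did not. With DESeq2 the number of keratins called was 14 in A2058 1q-loss, 2 in A2058 8q-loss, 11 in AGS, and 1 each in A2780, MCF10A and MCF10A hRas 1q-loss and for hRas within 1q-loss. Without the filter on low counts it was 14 in A2058 1q-loss, 2 in A2058 8q-loss, 2 in HCT116, 10 in AGS, 1 in MCF10A 1q-loss and 9 for hRas in WT, and between clones 7, 9 and 2 in A2058 1q-, 7p- and 8q-loss and 6 in A2780. With TK+ libraries as the only AGS controls it was 0.

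With the replicate block, 6 keratins were called in A2780 TK+, 7 for hRas in WT, and between clones 7, 9 and 6 in A2058 1q-, 7p- and 8q-loss. The numbers were not taken to pair the libraries: with 3 or more clones and controls the lowest correlation per comparison was -0.19 to 0.09. The mean correlation with the same number was above 0 for all 5 clones and controls in MCF10A 1q-loss and for 2 of 5 with hRas. It was above 0 for all 3 in A2058 1q-loss and in A2058 8q-loss. The counts were 3 of 4 in A2058 7p-loss, 2 of 3 in HCT116 8q-loss and 4 of 5 in A2780 1q-loss.

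Leaving out 1 library or clone gave 0 to 1 calls in A2058 8q-loss, 0 to 10 in AGS, 0 to 1 in A2780 1q-loss, 2 to 6 in A2780 TK+, 0 to 1 in MCF10A 1q-loss, 0 to 1 for hRas in WT and 0 to 3 for hRas within 1q-loss. Between clones it gave 3 to 7 in A2058 7p-loss, 0 to 2 in A2058 8q-loss, 5 to 14 in HCT116 and 2 to 5 in A2780. Where 1 library was left in an arm, it is assumed to vary like the others. The causes were not tested. Groups of 2 libraries limit the precision, and the filter left keratins below about 10 counts out of the main tests. Calls made without the filter can rest on few counts, as for KRT27, which did not exceed 9. Alternatives that left out the A2780 libraries with basal keratins, or kept MCF10A libraries of 1 number, were chosen after seeing the data.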
